A study of Mus musculus with 2 samples.

Results

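The canonical clustered histone genes are the replication-type genes of the Hist1, Hist2, Hist3 and Hist4 loci, which encode the linker histone H1 and the core histones H2A, H2B, H3 and H4. They were taken from the rows of the count matrix by symbol, as every symbol that starts with Hist1h, Hist2h, Hist3h or Hist4h, without the testis histone genes Hist1h1t, Hist1h2ba and Hist1h2aa and without pseudogenes named by -ps. This gave 66 genes of 51868 rows. They were followed in whole testis of 2 mice of strain C57Bl/6J Crl at 8 weeks of age. No treatment or genotype contrast was made, so that cell classes within each mouse were compared. Each mouse gave 1 droplet library of 3′ ends (Chromium v2), with 1237 cells and 27450497 UMIs (molecules counted by a unique molecular identifier) in mouse 1 and 1315 cells and 30302332 UMIs in mouse 2. Cells were grouped into clusters without any histone gene among the input and named from marker genes.

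In most cells the clustered histone genes are read while DNA is copied, so that new chromosomes can be wrapped around new nucleosomes. Their messages usually end in a short stem-loop bound by the protein Slbp and carry no poly(A) tail, whereas library methods that prime on poly(A) recover messages that end in a tail. Spermatids no longer copy DNA, and in later spermatids most histones are removed from the chromatin and protamines take their place.

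The message ends set out what a library of poly(A) ends could count, and those of the genes with the most UMIs and of Hist1h2ap are shown for that reason, 5′ to 3′. Of the 66 genes, 64 were matched by identifier to the GENCODE M21 annotation of GRCm38. Capitals mark the histone stem-loop motif or a poly(A) signal, AATAAA or ATTAAA. The stem-loop of Hist2h2aa1 (chr3:96245497-96246082, plus strand) lay 35 bases before the annotated end, that of Hist1h3a (chr13:23761853-23762386, minus strand) 37 bases and that of Hist3h2a (chr11:58954685-58956830, plus strand) 1643 bases. Hist1h2bp (chr13:21787461-21789213, plus strand) has 2 annotated transcripts, and the second is without the stem-loop letters and ends shortly after a poly(A) signal. Hist1h4a (chr13:23760692-23761230, minus strand) was without these stem-loop letters and held a poly(A) signal in its last 30 bases.
Hist2h2aa1, stem-loop: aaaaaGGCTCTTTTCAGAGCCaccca
Hist1h3a, stem-loop: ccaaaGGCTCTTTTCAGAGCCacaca
Hist3h2a, stem-loop: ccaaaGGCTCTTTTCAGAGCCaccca
Hist1h2ap, stem-loop: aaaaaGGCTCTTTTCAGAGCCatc
Hist1h2bp, first transcript, stem-loop: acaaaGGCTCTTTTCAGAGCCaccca
Hist1h2bp, second transcript, last 30 bases: ttataaaAATAAAggtttcaatctatccca
Hist1h4a, last 30 bases: aAATAAAccttgagtgcctttggagaattg

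The stem-loop letters were found in 41 of the 64 annotated genes and in 0.0946% of 58133 protein-coding transcripts of other genes. A poly(A) signal in the last 40 bases was found in 16 of the 64 genes, against 49.1% of the other transcripts. The 16 genes with the signal had a median of 12.5 UMIs, and 11 of them had at least 1. The other 48 had a median of 1 UMI, and 29 of them had at least 1. Both kinds held well counted genes, since genes with the signal held 6542 of the member UMIs and genes without it 4756. Few genes made up most of either sum. Hist1h2bp and Hist1h4a held 3378 and 2278 of the former, and Hist2h2aa1 held 3426 of the latter. Either motif was counted if any annotated transcript of a gene held it, and Hist1h2bp holds the signal in its second transcript. Annotated ends need not be those used in testis. Some annotated messages are short, such as Hist1h4k with 312 bases and Hist1h2bn with 381, and may hold little beyond the coding sequence. Where the end is missing from the annotation, neither motif could be found, so the counts without a motif include such genes.

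Sequence shared between members was measured too, since a read that fits more than 1 gene is given to none. A stretch of 98 bases, the read length, was called shared where another annotated gene held it too. Where the annotated message lacks its end, the share covers only the rest. The median share of such stretches was 74.1% for genes with no UMI, 39.6% for those with 1 to 9 UMIs, 21.5% with 10 to 99 and 32.5% with at least 100. The part of shared sequence in the counts was not tested. Hist2h2aa2 and Hist2h3c1 had no stretch of their own, and both were at 0 UMIs. Hist2h2aa1, the member with the most UMIs, shared 88.3% of its stretches and all of those in its last 300 bases, and its own stretches lay within bases 1 to 154 of 586. It also overlaps Gm20634 on the same strand, which had 4.58 and 2.06 CPM in the early spermatocyte-like cells of mouse 1 and mouse 2 and 15.9 and 11.9 CPM in the round spermatid-like cells. The count of Hist2h2aa1 is therefore uncertain as a measure of that gene alone.

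**Figure D1:**
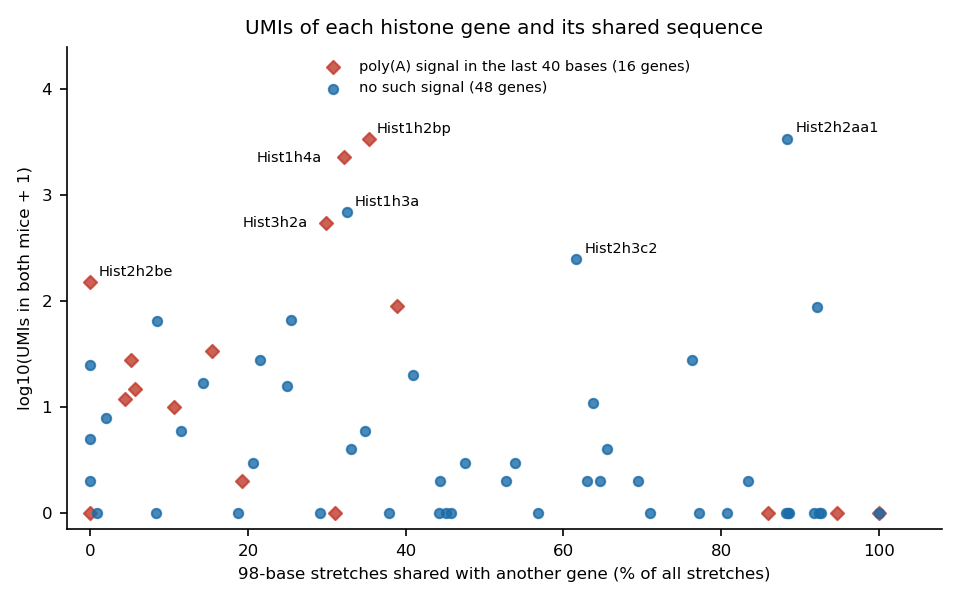
Each point is 1 of the 64 annotated histone genes. The x axis gives the percentage of its 98-base stretches that another gene also holds, the y axis the log10 of its UMIs in both mice plus 1, and the marker whether a poly(A) signal lies in the last 40 bases. Hist2h2aa1 stands alone at the upper right, with 3426 UMIs and 88.3% shared stretches.

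Few of the 66 genes were counted often. UMIs were found for 42 genes (63.6%, against 53.8% of all 50686 genes), and 24 had none. Where reads can be given to the gene, 0 UMIs allow up to 0.0519 CPM (the count scaled to the total UMIs of the cells, as the unit is usually defined) over all cells. For Hist2h2aa2 and Hist2h3c1, without a stretch of their own, 0 UMIs set no such limit. For other genes with mostly shared stretches the limit may be too low. Of the 42 genes, 7 had at least 100 UMIs, 15 had 10 to 99 and 20 had 1 to 9. All members together received 11303 UMIs, or 196 CPM, with 213 CPM in mouse 1 and 180 CPM in mouse 2. H3f3a, H3f3b and H2afz, which encode variant histones made outside of DNA replication, received 177202 UMIs together. At least 1 member UMI was found in 2230 of 2552 cells, or 87.4%.

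The UMIs were spread unevenly over loci and types. The 3 genes with the most UMIs, Hist2h2aa1 with 3426, Hist1h2bp with 3378 and Hist1h4a with 2278, held 80.4% of all member UMIs. Hist1h3a followed with 688, Hist3h2a with 552, Hist2h3c2 with 248 and Hist2h2be with 150. By type, H2A genes held 4210 UMIs over 12 of 19 genes, H2B genes 3648 over 12 of 17, H4 genes 2434 over 9 of 13 and H3 genes 944 over 5 of 12. The linker histone H1 had 67 UMIs, over 4 of 5 genes.

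The clusters formed an order along spermatogenesis. The cells of mouse 1 and mouse 2 numbered 53 and 111 in the early spermatocyte-like class, 307 and 219 in the pachytene to late meiotic-like class, 310 and 380 in the early round spermatid-like class and 188 and 259 in the round spermatid-like class. The early round class was named from the Ssxb genes. The elongating or condensing spermatid-like class had 370 and 337 cells in 2 clusters, 1 with a lower share of protamine UMIs (4.49% and 3.98% for Prm1 and Prm2 together) and 1 with a higher share (12.1% and 10.1%). The 18 other cells formed a spermatogonium-like cluster of 7, a Sertoli-like cluster of 6 and a Leydig-like cluster of 5, which entered no test. Mouse 1 and mouse 2 gave 3 and 4, 5 and 1, and 1 and 4 of these cells in that order, so some values per mouse come from 1 cell. The spermatogonium-like cluster also carried Sertoli markers.

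Summed over all 66 genes and compared over the 6 larger germ cell clusters, the level was low in spermatocytes and in the higher protamine cluster and highest in round spermatids and the lower protamine cluster, in both mice. The early spermatocyte-like cells had 152 CPM in mouse 1 and 68.5 in mouse 2. The pachytene to late meiotic-like cells had 113 and 77.7 CPM, and the early round spermatid-like cells 211 and 172. The round spermatid-like cells had 428 and 321 CPM. These values rank the classes within each mouse, and mouse 1 was higher throughout. The lower protamine cluster had 463 and 350 CPM. The higher protamine cluster had 124 and 89.8 CPM, below the round spermatid-like cells in both mice. As UMIs per cell, the mean of both mice was 8.62 ± 1.57 (SD, n = 2) in round spermatid-like cells, 10.1 ± 1.37 in the lower protamine cluster and 1.40 ± 0.25 in the higher. No test was made of a sum. This course was that of the 3 genes with the most UMIs. The other 63 genes together had 103 and 42.9 CPM in early spermatocyte-like cells, 32.6 and 29.8 in pachytene to late meiotic-like cells, 26.3 and 23.8 in early round and 41.2 and 41.4 in round spermatid-like cells, 65.1 and 65.0 in the lower protamine cluster and 40.2 and 34.1 in the higher. Their sum was highest in early spermatocyte-like cells in mouse 1 and in the lower protamine cluster in mouse 2. In the small clusters, the sum over all 66 genes was 390 and 842 CPM in the 7 spermatogonium-like cells and 396 and 655 CPM in the 6 Sertoli-like cells, from 53 and 29 UMIs in all. The 655 CPM come from the 1 Sertoli-like cell of mouse 2.

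**Figure D2:**
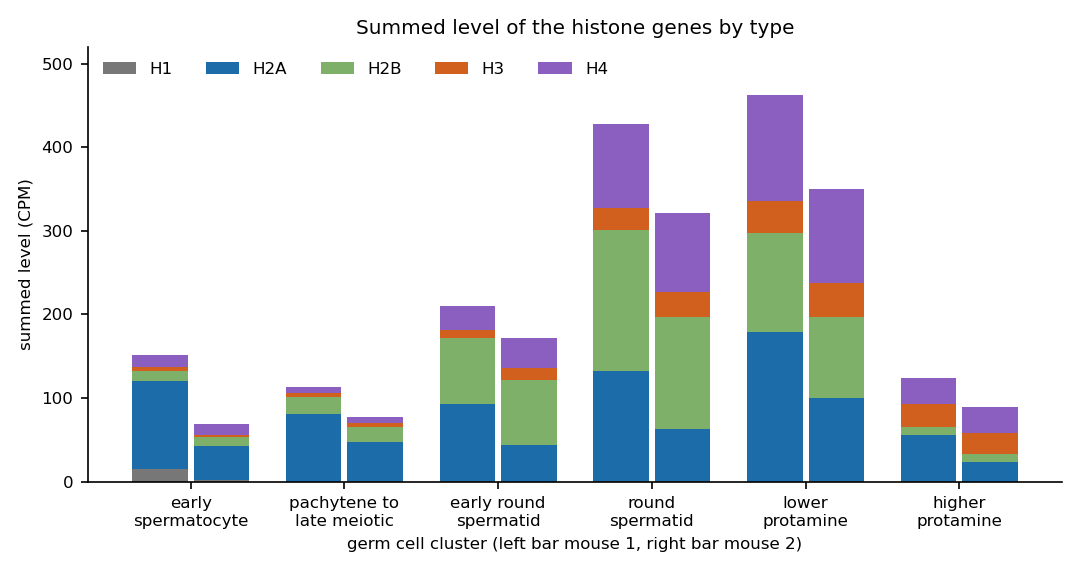
Bars give the summed CPM of the members in the 6 germ cell clusters, for mouse 1 on the left and mouse 2 on the right, stacked by histone type. The bars reach 463 and 350 CPM in the lower protamine cluster, and the H2B part (green) nearly disappears in the higher protamine cluster.

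The types did not keep the same proportions. H2A made up most of the spermatocyte sum, with 63.6 ± 23.6 CPM (SD, n = 2) in pachytene to late meiotic-like cells against 19.4 ± 1.38 for H2B and 6.94 ± 0.05 for H4. In round spermatid-like cells, H2B reached 152 ± 24.1, H2A 97.2 ± 49.4 and H4 97.3 ± 4.81 CPM. H2B had 9.33 ± 0.14 CPM in the higher protamine cluster, while H3 had 26.4 ± 1.83 and H4 31.2 ± 0.51. H1 had 8.57 ± 8.61 CPM in early spermatocyte-like cells and at most 0.54 in the later germ cell clusters.

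The share of cells with a member UMI depended on depth and did not order the classes as the summed level did. It was 77.4% (127 of 164 cells; exact 95% interval 70.3% to 83.6%) in early spermatocyte-like cells, 86.5% in pachytene to late meiotic-like cells, 94.9% in early round, 99.6% in round spermatid-like cells and 75.1% in both elongating clusters together. With every cell thinned to 5000 UMIs, these shares were 32.3%, 39.0%, 62.6%, 83.4% and 51.9%. RNA set free from other cells gives UMIs too. Prm1, a spermatid gene, had at least 1 UMI in each of the 164 early spermatocyte-like cells and the 526 pachytene to late meiotic-like cells, at 1.61% of its highest level in the latter. In these pachytene to late meiotic-like cells Hist1h4a stood at 2.77% of its highest level, Hist1h3a at 2.69%, Hist1h2bp at 8.90% and Hist2h2aa1 at 45.7%. The part of free RNA in the spermatocyte values was not tested.

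Sums per mouse and class were compared between neighbouring classes with edgeR's quasi-likelihood test, with Benjamini-Hochberg adjustment over 14727 genes. Only 11 of the 66 members passed the filter on low counts. All 11 differed among the 5 classes at an adjusted p under 0.05, as did 95.8% of all genes, so that this count is close to the background. Each comparison of neighbours used the same 2 animals on both sides, and n is 2 mice throughout. Log2 fold changes are given with a standard error worked back from the change and the F statistic of its test. This error restates the test and is not a spread over the 2 mice. Adjusted p-values are edgeR's unless another tool is named.

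Hist1h2bp, an H2B gene, was the most counted member in round spermatids. Its level in mouse 1 and mouse 2 was 5.50 and 5.37 CPM in early spermatocyte-like cells, 13.2 and 12.6 in pachytene to late meiotic-like cells, 74.6 and 75.0 in early round, 166 and 132 in round spermatid-like cells, 117 and 95.4 in the lower protamine cluster and 8.05 and 6.05 in the higher. The mice lay close together compared with the change between classes. It rose from early spermatocytes to the pachytene to late meiotic class (log2 fold change 1.51 ± 0.28, adjusted p = 0.00015), into early round spermatids (2.61 ± 0.16, adjusted p = 1.1e-11) and into round spermatids (1.23 ± 0.14, adjusted p = 4.4e-07). With both elongating clusters fitted apart, it gave -0.03 ± 0.16 without a call from round spermatids to the lower protamine cluster (adjusted p = 0.92). Its CPM, which is not TMM-scaled, was lower in the lower protamine cluster in both mice. From the lower to the higher protamine cluster it fell by 3.22 on the log2 scale (± 0.22, adjusted p = 9.9e-12).

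Hist1h4a, an H4 gene, and Hist1h3a, an H3 gene, lie 623 bases apart on the same strand of chromosome 13. Hist1h4a had 6.41 and 3.72 CPM in early spermatocyte-like cells, 3.07 and 3.49 in pachytene to late meiotic-like cells, 26.1 and 34.0 in early round, 99.6 and 92.6 in round spermatid-like cells, 126 and 111 in the lower protamine cluster and 30.5 and 31.5 in the higher. Hist1h3a had 2.75 and 1.65, 1.06 and 0.805, 6.27 and 8.64, 21.8 and 25.1, 34.0 and 36.4, and 20.3 and 20.7 CPM in the same order. Both were low in spermatocytes of both mice and highest in the lower protamine cluster. From the pachytene to late meiotic class to early round spermatids, Hist1h4a rose by 3.28 ± 0.21 on the log2 scale (adjusted p = 1.8e-11) and Hist1h3a by 3.04 ± 0.32 (adjusted p = 4.7e-08). They rose again into round spermatids, by 1.91 ± 0.16 and 1.87 ± 0.21 (adjusted p = 5.1e-09 and 3.6e-07), and into the lower protamine cluster, by 0.77 ± 0.16 and 1.05 ± 0.21 (adjusted p = 0.00027 and 0.00014). From the lower to the higher protamine cluster Hist1h4a fell by 1.26 on the log2 scale (± 0.18, adjusted p = 1.9e-06), and Hist1h3a gave -0.12 ± 0.22 (adjusted p = 0.72). The CPM of Hist1h3a, which is not TMM-scaled, was lower in the higher protamine cluster in both mice.

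**Figure D3:**
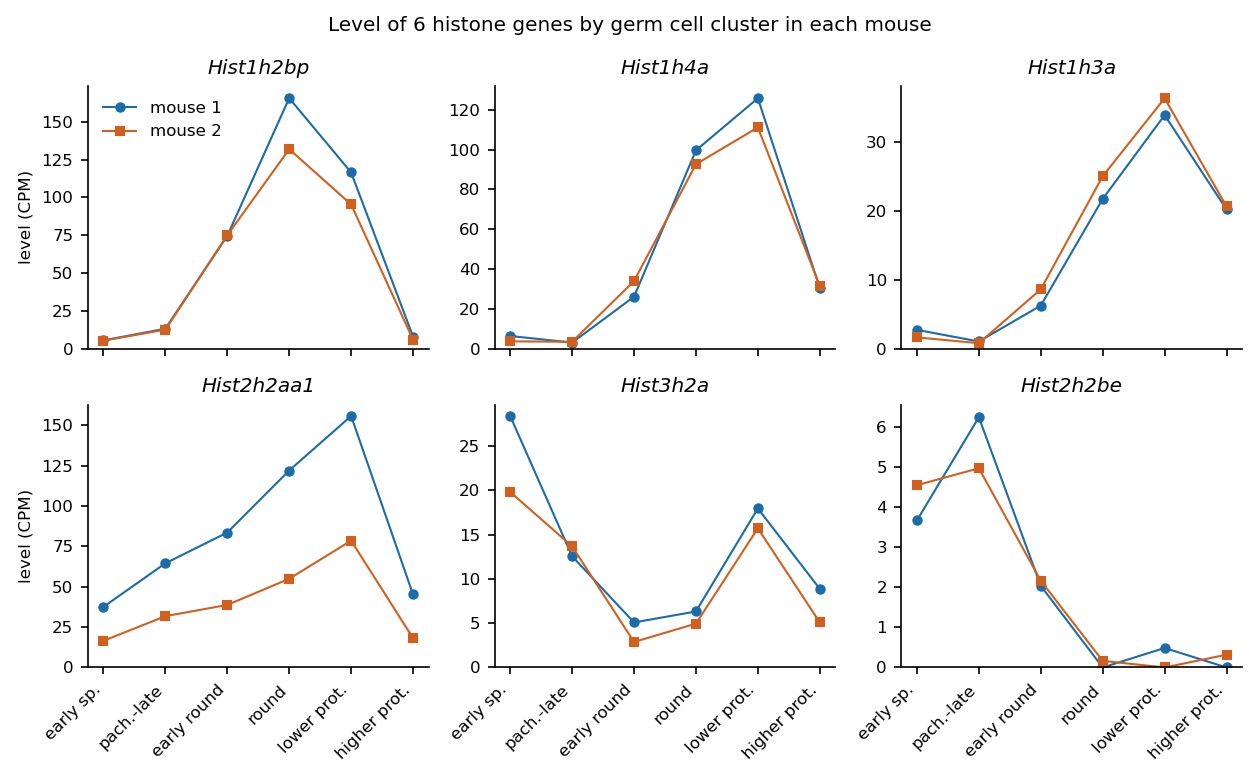
Each panel gives the CPM of 1 histone gene (y axis) in the 6 germ cell clusters (x axis), with mouse 1 as blue circles and mouse 2 as orange squares. Hist1h2bp, Hist1h4a and Hist1h3a peak in round or lower protamine spermatids, Hist2h2aa1 has the same course at different heights in the mice, Hist3h2a has a low in early round spermatids and Hist2h2be is nearly absent after early round spermatids.

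Because members of different types rose together after meiosis, the promoters of the members were searched for short motifs on both strands, in windows of 250 bases before to 50 after the start from RefSeq (GRCm38.p6). Windows were found for 58 members, 59 in all. Hist1h3a had none, so that of the 3 genes just described Hist1h2bp and Hist1h4a were searched. The promoters of Hist1h4a and Hist1h2bp are shown for that rise, and that of Hist1h2ag because it shares a site with its neighbour. Capitals mark the TATA box letters TATAAA, the CCAAT box letters, the octamer ATTTGCAT and the cyclic AMP response element TGACGTCA, or their reverse complements, of which that of CCAAT reads ATTGG. Each motif was counted by itself, whether or not it overlapped another and wherever it lay in the window. The TATAAA of Hist1h4a lay after its start (chr13:23761203-23761208). That of Hist1h2bp lay 212 to 207 bases before its start, as the reverse complement. The same site lies in the window of its divergent neighbour Hist1h2an. A site shared by divergent neighbours was counted in each window. Whether these letters act as a TATA box of either gene was not tested.
Hist1h4a promoter, chr13:23761200-23761499, minus strand: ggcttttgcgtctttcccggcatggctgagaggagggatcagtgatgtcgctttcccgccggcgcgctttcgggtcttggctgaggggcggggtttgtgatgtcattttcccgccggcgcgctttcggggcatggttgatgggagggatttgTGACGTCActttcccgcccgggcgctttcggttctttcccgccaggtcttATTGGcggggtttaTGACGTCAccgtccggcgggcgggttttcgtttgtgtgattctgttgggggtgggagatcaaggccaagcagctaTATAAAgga
Hist1h2bp promoter, chr13:21787238-21787537, plus strand: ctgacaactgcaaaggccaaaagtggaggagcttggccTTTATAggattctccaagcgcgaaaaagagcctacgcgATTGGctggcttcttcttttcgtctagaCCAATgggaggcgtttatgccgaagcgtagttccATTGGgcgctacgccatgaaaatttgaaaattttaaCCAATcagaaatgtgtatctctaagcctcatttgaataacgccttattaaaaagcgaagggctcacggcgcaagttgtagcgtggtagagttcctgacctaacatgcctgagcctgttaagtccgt
Hist1h2ag promoter, chr13:22042900-22043199, minus strand: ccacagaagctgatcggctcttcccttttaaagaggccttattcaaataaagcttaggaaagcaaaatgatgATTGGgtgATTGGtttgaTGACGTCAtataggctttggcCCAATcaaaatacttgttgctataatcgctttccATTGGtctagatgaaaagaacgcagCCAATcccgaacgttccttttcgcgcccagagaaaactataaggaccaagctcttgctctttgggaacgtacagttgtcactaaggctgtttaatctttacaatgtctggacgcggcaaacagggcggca

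TATAAA was found in 33 of the 59 windows (55.9%) against 13.6% of 32851 promoters, CCAAT in 50 (84.7%) against 37.4% and ATTTGCAT in 12 (20.3%) against 1.74%. CCAAT was in all 5 H1, all 16 H2A, all 16 H2B and all 10 H3 windows, and in 3 of 12 H4 windows. ATTTGCAT was in 6 of 16 H2A and 6 of 16 H2B windows, in Hist3h2a and Hist2h2ac among others, and in none of the H3, H4 or H1 windows. TGACGTCA was in 4 of the 59 windows against 1.79% of all promoters. The 4 were Hist1h4a, Hist1h4h, Hist1h2ag and Hist1h2bj, and the last pair share a single site (chr13:22043102-22043109) between divergent starts. Hist1h4a held 2 copies, 98 to 91 and 34 to 27 bases before its start. At least 2 copies were found in 0.0396% of all promoters (13 of 32851). Hist1h2bp held none. Hist1h4h was highest in spermatocytes, as given below, unlike Hist1h4a. Over the 5 classes in order, Hist1h2ag had 1, 1, 7, 9 and 9 of its 27 UMIs. Hist1h2bj had 0, 2, 6, 10 and 1 of its 19. The part of the motif in these levels was not tested.

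Hist2h2aa1, an H2A gene, was counted at different levels in the mice in every germ cell cluster. Mouse 1 and mouse 2 had 37.6 and 16.5 CPM in early spermatocyte-like cells, 64.6 and 31.8 in pachytene to late meiotic-like cells, 83.6 and 38.8 in early round, 122 and 55.0 in round spermatid-like cells, 156 and 78.6 in the lower protamine cluster and 45.2 and 18.1 in the higher. Mouse 1 was higher by 1.98- to 2.49-fold, and no more than 0.353% of genes with at least 100 UMIs in a cluster had a ratio as high. Ratios toward mouse 2 were not counted in this share, and Hist2h2aa1 itself had 81 UMIs in early spermatocyte-like cells. With 1 library per mouse, the animal and the library cannot be told apart. Within each mouse the level ordered the clusters alike. In the fit without a term for the mouse, it rose from early spermatocytes to the pachytene to late meiotic class (1.28 ± 0.47, adjusted p = 0.03), whereas the next 3 steps did not pass (adjusted p = 0.38, 0.096 and 0.34). With the mouse as a block, those 3 steps passed as well (adjusted p = 0.0023, 4e-09 and 0.00066), but the last, 0.44 with TMM scaling, was -0.41 with library totals. The first step did not pass with library totals in place of TMM scaling (1.0 ± 0.53, adjusted p = 0.13). From the lower to the higher protamine cluster it fell by 1.19 on the log2 scale (± 0.41, adjusted p = 0.022).

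**Figure D4:**
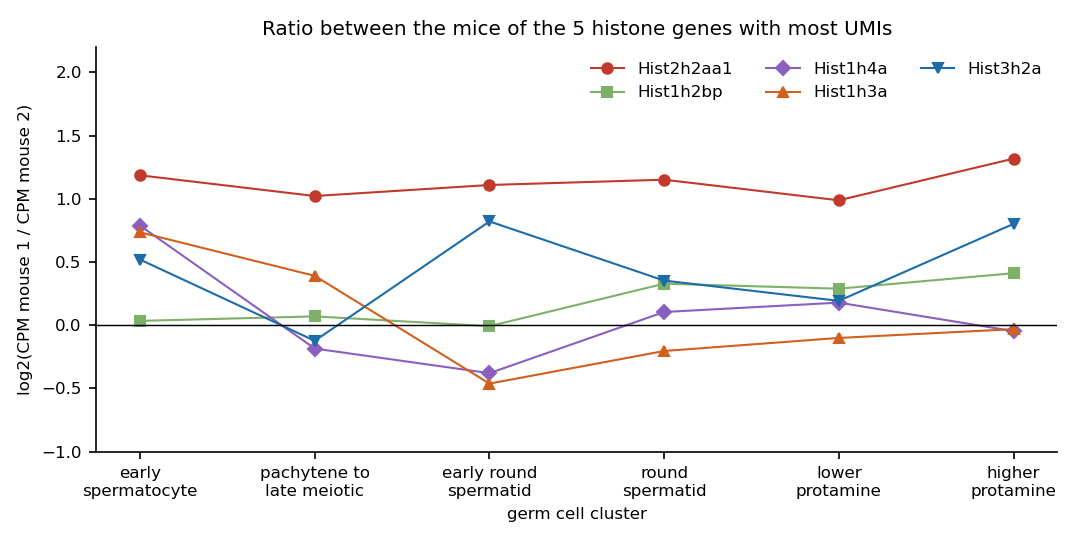
Lines give the log2 ratio of CPM in mouse 1 to CPM in mouse 2 (y axis) for the 5 histone genes with the most UMIs in the 6 germ cell clusters (x axis). Hist2h2aa1 (red circles) stays near 1 or above in every cluster, and the other genes lie closer to 0.

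A further set of members had their highest CPM in spermatocytes. The log2 changes given for them are TMM-scaled and need not rank the clusters as CPM does. Hist3h2a, the H2A gene of the Hist3 locus, had 28.4 and 19.8 CPM in early spermatocyte-like cells, 12.6 and 13.7 in pachytene to late meiotic-like cells, 5.09 and 2.88 in early round, 6.33 and 4.95 in round spermatid-like cells, 18.0 and 15.7 in the lower protamine cluster and 8.88 and 5.09 in the higher. It fell by 1.68 on the log2 scale (± 0.26, adjusted p = 1.2e-05) into early round spermatids and rose by 2.05 ± 0.30 (adjusted p = 2.7e-06) from round spermatids to the lower protamine cluster. With the mouse as a block, its changes from early spermatocytes to the pachytene to late meiotic class (-0.55 ± 0.25, adjusted p = 0.082) and from early round to round spermatids (0.77 ± 0.31, adjusted p = 0.052) passed too (adjusted p = 0.026 and 0.023). It overlaps Trim17 on the same strand, whose level was 8.25 and 9.79 CPM in pachytene to late meiotic-like cells and 395 and 478 in the lower protamine cluster. The part of Trim17 in the late level of Hist3h2a was not tested.

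Hist2h2be, a long H2B message with a poly(A) signal and no shared stretch, had 3.66 and 4.54 CPM in early spermatocyte-like cells, 6.23 and 4.96 in pachytene to late meiotic-like cells and 2.04 and 2.16 in early round spermatid-like cells. In round spermatid-like cells it had 0 UMIs in mouse 1 and 1 in mouse 2. It fell by 1.34 on the log2 scale (± 0.33, adjusted p = 0.0016) into early round spermatids, and the further step into round spermatids was called (adjusted p = 0.00057). Hist1h4h, an H4 gene, had 3.36 and 3.09 CPM in pachytene to late meiotic-like cells and 1.36 and 0.84 in early round spermatid-like cells, a fall by 1.51 on the log2 scale (± 0.48, adjusted p = 0.01). The falls of Hist2h2be and Hist1h4h into early round spermatids did not pass with DESeq2 (adjusted p = 0.061 and 0.14). Hist1h4h passed the filter on low counts only through spermatocyte-like cells, so its fall was favoured in advance. In round spermatid-like cells Hist1h4h had 0.234 and 0.825 CPM, from 1 and 5 UMIs. Its step from early round spermatids was not called (-0.62 ± 0.75, adjusted p = 0.55). Hist2h2be was thus nearly absent and Hist1h4h low in round spermatids, while Hist1h2bp and Hist1h4a of the same types were at or near their highest level.

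The less counted members gave single UMIs per class and mouse in places. Hist1h4i had 3 and 10 UMIs in early spermatocyte-like cells, 1 and 0 in pachytene to late meiotic-like cells and 5 and 8 in early round spermatid-like cells. Its fall and its rise were called (adjusted p = 8.3e-05 and 0.0029). Hist2h2ac, an H2A gene of the Hist2 locus, had 11.0 and 2.06 CPM in early spermatocyte-like and 1.06 and 0.402 CPM in pachytene to late meiotic-like cells and fell by 2.41 on the log2 scale (± 0.68, adjusted p = 0.0054). It was 3.40 and 2.14 CPM in the lower protamine cluster, above the 1.17 and 0.66 CPM of round spermatid-like cells (2.05 ± 0.75, adjusted p = 0.028). Hist1h4i and Hist2h2ac passed the filter on low counts only through early spermatocyte-like cells, so their falls from that class were favoured in advance. With both elongating clusters apart, Hist2h2ac passed only through mouse 1, in early spermatocyte-like cells and the lower protamine cluster. Its rise was thus favoured too. Hist2h3c2, an H3 gene, stood at 3.39 to 6.94 CPM in every later cluster of both mice after 1.83 and 0.413 CPM in early spermatocyte-like cells (2.59 ± 0.63, adjusted p = 0.0018). The latter level rests on 3 UMIs over both mice, where 0 UMIs allow up to 2.75 CPM in mouse 1 and 1.24 in mouse 2. Hist2h3c2 rose by 1.15 ± 0.42 (adjusted p = 0.031) from the lower to the higher protamine cluster.

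**Figure D5:**
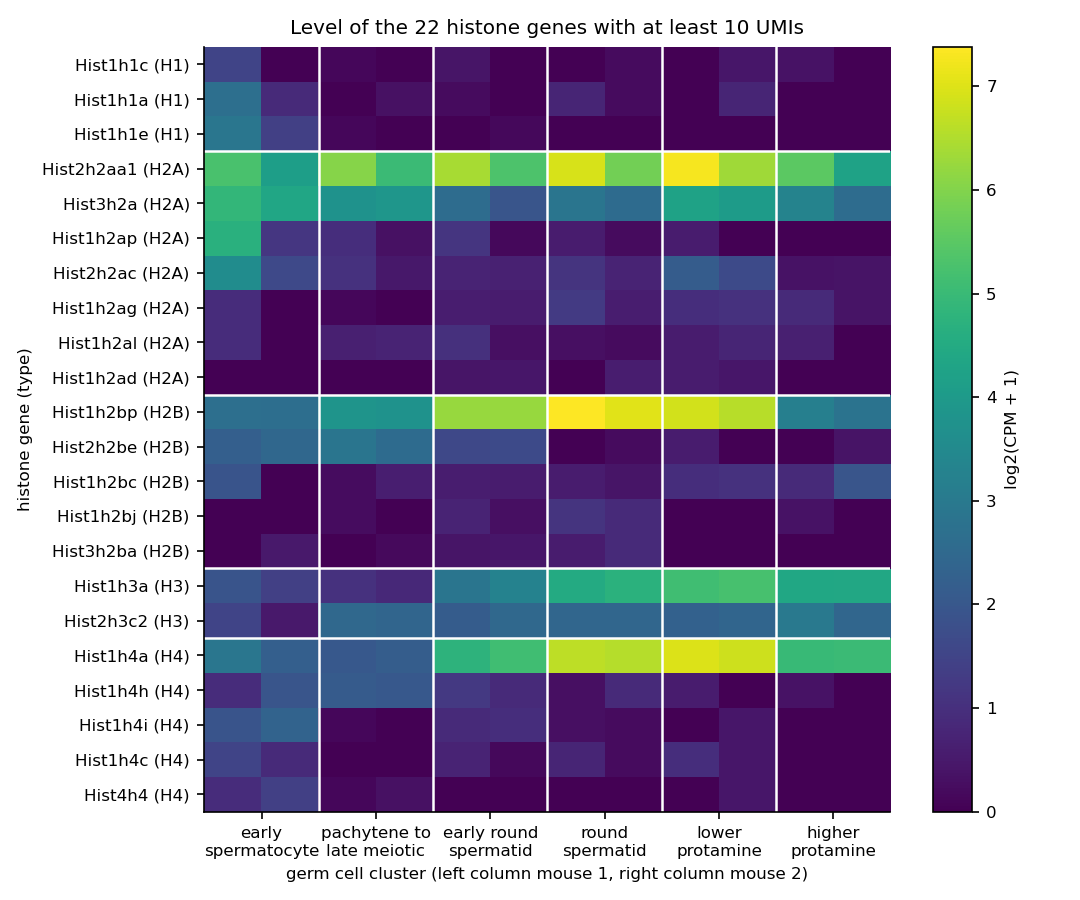
Colours give log2(CPM + 1) of the 22 histone genes with at least 10 UMIs (rows, by type) in the 6 germ cell clusters (columns, mouse 1 then mouse 2). Hist2h2aa1, Hist1h2bp and Hist1h4a are bright in round and lower protamine spermatids, while Hist1h1a, Hist1h1e and Hist1h2ap are visible mainly in the early spermatocyte-like cells of mouse 1.

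Counted by comparison, the members called were few. From early spermatocytes to the pachytene to late meiotic class, 3 of the 11 tested rose and 2 fell, while 25.0% and 23.6% of all 14727 genes were called in these directions. The 2 that fell, Hist1h4i and Hist2h2ac, passed the filter on low counts only through the class they fell from. Into early round spermatids 4 rose and 3 fell, against 31.8% and 29.2% of all genes, and into round spermatids 3 rose and 1 fell, against 24.8% and 19.7%. From round spermatids to both elongating clusters together 4 rose and 1 fell, against 27.0% and 26.1%. The counts are too small to set the members apart from other genes. In the fit with both elongating clusters apart, 4 rose and none fell into the lower protamine cluster (22.7% and 21.3% of 13891 genes), and 1 rose and 3 fell from the lower to the higher (17.9% and 21.5%). Some calls above concern members that passed the filter at least in part through the class where they were higher. These are Hist1h4h into early round spermatids, Hist1h2bc into the elongating class and Hist2h2ac into the lower protamine cluster.

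The step to the elongating clusters depended on the scaling. TMM scaling sets the median gene near no change (-0.03 on the log2 scale), whereas with library totals the median of all genes was -0.86. For the earlier steps, library totals gave medians of -0.22, -0.09 and -0.31. With TMM scaling, Hist3h2a (1.85 ± 0.27, adjusted p = 7.3e-06), Hist1h3a (1.03 ± 0.19, adjusted p = 0.00012), Hist2h3c2 (1.04 ± 0.33, adjusted p = 0.011) and Hist1h2bc (2.70 ± 0.85, adjusted p = 0.01) were higher in the elongating class and Hist1h2bp lower (-0.79 ± 0.15, adjusted p = 0.00011). The call of Hist1h2bc rests on 17 UMIs against 4 in round spermatid-like cells, and 6 of the 17 lay in 1 cell of mouse 2. Hist1h2bc passed the filter on low counts only through early spermatocyte-like cells of mouse 1 and the elongating class of mouse 2. The latter would not have passed without that 1 cell, so the rise was favoured in advance. With library totals, 1 member was higher and 2 were lower, as Hist3h2a alone kept its call upward (1.0, adjusted p = 0.0057), Hist1h2bp kept its call downward (-1.63, adjusted p = 2e-08) and Hist1h4a was called lower (-0.52, adjusted p = 0.006) after 0.33 ± 0.15 with TMM (adjusted p = 0.075, and 0.014 with the mouse as a block). The shares of all genes called with library totals are not given, so the member counts under that scaling have no background beside them. Changes into the elongating class are thus relative to the median gene. The fit with both elongating clusters apart was made with TMM scaling only, so its changes are relative in the same way.

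Members with few UMIs in germ cells were seen in the small clusters. Hist1h2ap, an H2A gene, had 6 UMIs in 2 of 3 cells of mouse 1 and 26 in 4 of 4 cells of mouse 2 in the spermatogonium-like cluster (146 and 592 CPM). In early spermatocyte-like cells it had 24.7 CPM in mouse 1 and 1.24 in mouse 2, and 22 of the 30 UMIs lay in 1 cell of mouse 1, which also held 4 of the 8 UMIs of the H1 gene Hist1h1a. Without that cell, Hist1h2ap had 2.28 CPM (exact 95% Poisson interval 0.986 to 4.50) in the other 163 cells. Hist1h2ap shared 92.2% of its stretches and held a run of 12 A. It did not pass the filter and was not tested. Hist1h2bc, an H2B gene, had at most 2.87 CPM in any germ cell cluster of a mouse other than the spermatogonium-like. The Sertoli-like cluster had 5 cells in mouse 1 and 1 in mouse 2, and Hist1h2bc had 11 and 5 UMIs there (208 and 409 CPM). The Leydig-like cluster had 1 and 4 cells, and Hist1h2bc had 0 and 8 UMIs there (0 and 196 CPM). In the 1 Leydig-like cell of mouse 1, 0 UMIs allow up to 300 CPM. Hist1h1c, chosen after its values were seen, had 16 of its 27 UMIs in these 11 cells. In the same Sertoli- and Leydig-like cells Hist1h2bp, Hist1h4a and Hist1h3a were at 0 UMIs, where 0 allows up to 46.0 and 59.2 CPM.

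The other 54 members held 245 UMIs in all, over 30 genes, with at most 27 for any gene. Besides those given, Hist1h1e had 11 of 15 UMIs in early spermatocyte-like cells. Hist1h2bj had 16 of 19 and Hist3h2ba 12 of 14 in early round and round spermatid-like cells. Hist1h2al, with 27 UMIs, is annotated as a processed pseudogene and was kept because its symbol met the rule. These 4 were chosen after their values were seen, none was tested, and the counts allow no statement beyond the classes in which UMIs were seen.

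Genes that act on histone messages and on histones were read from the same fit. Of 17 genes of histone message processing, 1 rose and 9 fell from early spermatocytes to the pachytene to late meiotic class, 2 rose and 10 fell into early round spermatids, 2 rose and 8 fell into round spermatids and 3 rose and 6 fell into the elongating class. The shares of all genes called higher and lower were 25.0% and 23.6% at the first of these steps, 31.8% and 29.2% at the second, 24.8% and 19.7% at the third and 27.0% and 26.1% at the last. The list's median log2 change was -0.40, -0.67, -0.49 and -0.62, where the median of all genes was 0.01, -0.01, -0.07 and -0.03. Slbp, the stem-loop binding protein, gave -0.40, -0.67 and -0.58 at the first, second and last step, all called, and -0.35 without a call into round spermatids. Snrpd3 and Snrpb, ring proteins of small nuclear particles, fell by 2.53 and 2.18 on the log2 scale into early round spermatids. Sympk, a scaffold of message 3′ cleavage, rose by 2.58 from round spermatids to the elongating class. Cstf2, a cleavage factor of poly(A) messages, rose by 3.78 into early round spermatids, and its paralogue Cstf2t fell by 1.29 on the log2 scale there. These last 2 genes were chosen after their values were seen.

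Of 18 histone chaperone genes, 4 rose and 7 fell into the pachytene to late meiotic class, 2 rose and 9 fell into early round spermatids, 0 rose and 7 fell into round spermatids and 3 rose and 4 fell into the elongating class. Beside the shares of all genes just given, several of these counts are near the background. The list's median log2 change was -0.18, -0.65, -0.28 and 0.10. Most genes named from the lists of message processing, chaperones and replication are given at some steps only and do not stand for their lists. Nasp, a chaperone of H1 and of H3 with H4, rose by 1.33 into the pachytene to late meiotic class and fell by 1.82 on the log2 scale into the elongating class. Npm1, a nucleolar chaperone, fell by 1.46 at the last step, and Npm3 rose by 0.71. Chaf1a, a subunit of the assembly factor that follows replication, rose by 0.88 at the first step. Of 26 DNA replication genes 21 were tested. At the successive steps 5, 5, 2 and 4 rose and 9, 9, 8 and 5 fell, with medians of -0.59, -0.53, -0.41 and -0.32. The counts that rose, and those that fell at the last step, were below the shares of all genes. Pcna, the replication clamp, gave 0.20 without a call at the first step, fell by 0.46 into early round spermatids and fell by 2.10 from the lower to the higher protamine cluster, while Rrm1, a subunit of the enzyme that makes DNA precursors, rose by 1.24 at the first step and fell by 2.81 into round spermatids. Mcm7 and Rfc4 gave 0.37 and 0.57 into early round spermatids, both called.

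Among the 6 germ cell clusters that entered tests, the 3 testis histone genes left out of the set had their highest mean level in early spermatocyte-like cells. Hist1h1t, a linker histone of meiotic cells, had 13.7 and 10.7 CPM in early spermatocyte-like cells, 2.78 and 5.90 in pachytene to late meiotic-like cells and 2.81 and 1.82 in round spermatid-like cells. Hist1h2ba had 5 and 9 UMIs in early spermatocyte-like cells of mouse 1 and mouse 2 (4.58 and 3.72 CPM), and Hist1h2aa had 48 and 11 (44.0 and 4.54 CPM), so that the mice differed widely for the latter. Neither had a UMI in round spermatid-like cells. In the 7 spermatogonium-like cells, Hist1h2aa had 1 and 5 UMIs (24.4 and 114 CPM) and Hist1h2ba had 0 and 1. All 3 fell from early spermatocytes to the pachytene to late meiotic class (-1.23, -3.46 and -5.11 on the log2 scale).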

How the data were processed

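Single-cell libraries of testis from 2 mice were made with Chromium 3′ v2 chemistry. Per the labels and the study's methods, the authors used bcl2fastq 2.17.1.14 and Cell Ranger 2.0.0 with a repeat-masked GRCm38 (mm10) genome and Ensembl annotation, and combined both mice, discarding reads of the deeper library so that both had the same mean reads per cell. The deposited matrix holds whole UMI counts per row and cell, which are equalized in this way between the mice and otherwise not scaled. All 2552 cells entered the analysis, including 25 called as doublets, and the mice had 0 barcodes in common.

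Counts were scaled to the median total and log2-transformed after adding 1, and K-means (K = 9, 10 components, 10 restarts, seed 42) was run without 111 histone rows. Clusters were named by the marker list with the highest mean score, given at least 3 markers at 1.5 times the level of all cells. Classes with at least 20 cells in each mouse were summed per mouse, giving 10 sums (12 with both elongating clusters apart, an alternative added after the data were seen). They were tested with edgeR 4.0.16 (quasi-likelihood, TMM, filterByExpr, Benjamini-Hochberg) in R 4.3.3, all classes sharing 1 estimate of the spread. Tests were checked on simulated counts without a mouse effect, in which only 200 genes changed, 4-fold, in the elongating class. Of these, edgeR found 195 and called 13 others, and DESeq2 found 191 and called 6 others, among 13620 genes tested. Far more genes differ among classes in the data, so this check cannot judge the choice of scaling. Sums with the same number come from the same animal, and deviations from class means correlated at 0.031 to 0.156 (median 0.116) over 10 pairs of classes, so the mouse was also fitted as a block.

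Named members are the 12 with the most UMIs and up to 5 per comparison with the largest called change in the same direction in both mice, and named pathway genes the 4 with the most UMIs of each list. The members and lists were chosen with earlier results of these data known. Intervals cover counting error only, and p-values rest on 2 animals. Other tools were Python 3.11.15, scanpy 1.11.5, scikit-learn 1.9.0 and DESeq2 1.42.0. Protein sequences were not used here.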

Additional observations from a re-analysis of the deposited data

Results flagged for a closer look

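Among the 12 members with the most UMIs, signals of 2 were found above every tested germ cell cluster in cells that entered no test. The other 54 members, Hist1h1c and Hist1h1a among them, were not searched in this way. Hist1h2ap stood at 376.7 CPM in the spermatogonium-like cluster, from 32 UMIs in 6 of 7 cells, with 16 of them in 1 cell. Hist1h2bc stood at 47.09 CPM in the spermatogonium-like cluster, where its 4 UMIs lay in 1 cell of mouse 1, at 245.4 CPM in the Sertoli-like cluster and at 157.8 CPM in the Leydig-like cluster. The spermatogonium-like cluster also carried Sertoli markers, and their part in these values was not tested.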

How the results depend on the processing

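Counts of members called kept within 1.5 times of the main count under the alternatives, except that without a filter on low counts 9 members were called in place of 5 from early spermatocytes to the pachytene to late meiotic class, where 42 members were tested, and that with library totals 3 were called in place of 5 into the elongating class. With the mouse as a replicate block, 6, 8, 6 and 7 members were called at the 4 steps in place of 5, 7, 4 and 5, and 11 among all classes as before. The shares of all genes called under these alternatives are not given, so these counts have no background beside them and say nothing of the members as a set. With the 2000 most variable rows the early round class was not found apart, and no value of its steps was computed.

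The summed level had a log2 ratio of -0.12 ± 0.43 (SD over the mice) at the first step. It was 0.56 as UMIs per cell, 0.0060 with histone genes in the clustering, 0.16 with TMM-scaled CPM and -0.70 without Hist2h2aa1, and ran from -0.42 to 0.18 with either mouse left out, so no direction can be given. The second ratio, 1.02 ± 0.18, was 0.28 as UMIs per cell and 1.45 without Hist2h2aa1. The third, 0.96 ± 0.09, was 1.14 as UMIs per cell, 1.14 without Hist2h2aa1 and 1.21 with TMM. The last, -0.69 ± 0.14, was -1.18 as UMIs per cell, -0.47 without the 20 highest rows of each class and 0.16 with TMM, which turns its direction. With either mouse left out, these 3 ratios ran from 0.89 to 1.14, from 0.90 to 1.02 and from -0.79 to -0.60. Thinning to 5000 UMIs gave shares of cells of 32.3%, 39.0%, 62.6%, 83.4% and 51.9% in place of 77.4%, 86.5%, 94.9%, 99.6% and 75.1%, by its construction of fewer UMIs.

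Of the fold changes of named members, 427 of 466 alternative values kept their direction and, where tested, their side of the threshold. Values with a mouse left out had no test and were judged by direction alone. Of the others, 15 gained a call, 6 of them under the block, 8 lost a call, and 8 uncalled values changed sign with a mouse left out. With library totals into the elongating class, Hist2h2aa1 gave -0.41 in place of 0.44 and Hist1h4a -0.52 in place of 0.33. Small uncalled values turned for Hist2h3c2 into early round spermatids (0.067 with DESeq2, 0.074 with its size factors and 0.011 without the filter, in place of -0.04), for Hist1h2bc into round spermatids (0.037 and 0.023 in place of -0.10) and for Hist1h4a at the first step (0.056 without doublets in place of -0.24). Where not stated, the cause was not tested. Members under 10 UMIs are limited by depth.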
